A study of Mus musculus with 9 samples.

Results

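The splicing machinery was described here through 96 chromatin windows assigned to 90 protein-coding genes, out of 17641 windows and 14969 genes in the whole table. The genes were chosen by name: the serine/arginine-rich factors (Srsf), the SF3a and SF3b subunits (Sf3a, Sf3b), the Sm and other small nuclear ribonucleoprotein (snRNP) proteins (Snrp), the heterogeneous nuclear ribonucleoproteins (Hnrnp), the pre-mRNA processing factors (Prpf), U2 auxiliary factor (U2af), the Gemin proteins with Smn1, the polypyrimidine tract binding proteins (Ptbp), the RNA binding motif proteins (Rbm) and both Tra2 genes. Smndc1, the gene targeted in the study, and the imprinted Snrpn were kept out. A total of 6 genes had 2 windows each, and the genes lay on 20 chromosomes. The rule itself uses names only, but it was set with earlier results of these data known.

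The study profiled chromatin of mouse pancreatic endocrine cell lines by immunoprecipitation and sequencing (ChIP-seq), with an antibody labelled as directed against histone H3 trimethylated at lysine 9 (H3K9me3, from Active Motif). The first group was alphaTC1, an alpha cell line, transduced with empty vector for 5 days (n = 2). The next was alphaTC1 transduced with Smndc1 shRNAs, short hairpin RNAs, for the same 5 days (n = 2), and the last was untreated betaTC3, a beta cell line (n = 2); each group had 1 input sample besides. The alphaTC1 groups therefore share transduction, which betaTC3 lacks, and nothing in the labels says that the libraries of a group came from separate cultures. P-values below measure only the spread between these libraries, which may be technical.

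Pre-mRNA splicing is carried out by the spliceosome, which is built from snRNPs. Each snRNP is a small nuclear RNA wrapped in a ring of Sm proteins, and the SMN complex loads that ring. U2AF and the SF3 complexes mark the end of the intron and its branch point, the PRPF factors help to form the catalytic core, and SR, Tra2, hnRNP, PTB and RBM proteins bind the transcript and favour or block particular exons. Smndc1 encodes a Tudor-domain protein of the spliceosome. H3K9me3 is known as a mark of silent chromatin, whereas genes of the splicing machinery are active in nearly all cells.

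Values below are scaled reads, meaning whole reads in a window multiplied by 1 factor per library. Nearly all windows are 401 bp wide (99.84%), so levels can be set side by side between genes. Each library held 4530066 to 9924487 reads in the windows. The cell lines could be told apart by some of their own genes. The window at the start of Irx1, an alpha cell factor, held 970 to 1270 scaled reads in the 4 alphaTC1 libraries and 0.8 and 0 in betaTC3. That of Pdx1, a beta cell factor, held 0 to 5.3 and 1829 and 1840. Markers went against the lines in places, since Ttr, listed as an alpha cell gene, stood at 0 to 2.8 in alphaTC1 and at 130 and 123 in betaTC3. Nkx6-1, listed as a beta cell gene, held 1068 and 1129 at its start with the empty vector, and 1223 and 1135 in betaTC3. Genes listed for other cell types differed too. The start of Sox9, a duct gene, stood at 465 to 601 in alphaTC1 and at 3.99 and 4.76 in betaTC3. That of Sst, a delta cell gene, stood at 0 to 2.65 and at 107 and 93.3. The start of Smndc1 itself was at 1370 and 1378 with the empty vector, 812 and 1126 with the hairpin and 1689 and 1653 in betaTC3. The Irx1 and Pdx1 windows were high in the line that these factors belong to and near 0 in the other, and the starts of splicing genes were high too. The start of Ttr went the other way, and that of Nkx6-1 was high in both lines. What the antibody recovered was not tested, so a level below is the signal of a library labelled H3K9me3 and is not read as silencing or as activity. A hairpin acts on RNA, so this chromatin value does not check the knockdown.

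Of the 96 windows, 85 lay within 1 kb of the start of their gene and 11 lay farther away. The windows at gene starts were centred a median of 344 bp downstream of the start, and 80 of 85 were centred downstream. Over all 10256 windows at starts of protein-coding genes the median was 272 bp. At 19 of the 85 starts another gene in RefSeq begins within 1 kb, as Cbx3 beside Hnrnpa2b1, Cbx5 beside Hnrnpa1, Tfpt beside Prpf31 and Ccdc157 beside Sf3a1, so that a window there belongs to both promoters. The table carries a second start position, which differs from the first in 15.3% of its rows, and 6 of the 85 windows would be more than 1 kb from that one.

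The promoters of 72 of these 85 genes could be read from RefSeq (GRCm38.p6), as the 250 bases before and 50 after the start nearest to the window. They were rich in CG: the median GC content was 60.8% (40.0 to 79.7%), against 52.7% over all 32851 RefSeq promoters and 62.7% over 7727 promoters of protein-coding genes with a window at the start. The median number of CpG dinucleotides was 25, against 7 and 23. The ETS core CCGGAAG, searched on both strands like the other motifs, stood in 27.8% of them, against 8.9% of all promoters and 19.4% of those with a window. For the GC box GGGCGG, the letters bound by Sp1, the shares were 65.3%, 35.7% and 71.3%. For CCAAT they were 45.8%, 37.4% and 39.0%, and for TATAAA 8.3%, 13.6% and 5.7%. For the YY1 letters AAGATGGCG they were 5.6%, 1.4% and 3.4%. For the NRF1 letters GCGCATGCG they were 2.8%, 1.8% and 4.2%, so the share was below that of promoters with a window. A match describes the letters and is no evidence of binding.

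A set of 6 promoters is printed here because the results turn on these genes: Sf3b1, Sf3a1 and Rbm11 were the gene starts with the lowest betaTC3 values relative to alphaTC1, Snrpb2 was higher in betaTC3, and Rbm39 and Hnrnpu had the highest levels of all. Each runs 5′ to 3′ on the strand of its gene, and capitals mark matches to the 6 motifs above on either strand. Sf3b1 is at chr1:55027429-55027728 (minus strand), Sf3a1 at chr11:4160104-4160403 (plus strand), Rbm11 at chr16:75592641-75592940 (plus strand), Snrpb2 at chr2:143062819-143063118 (plus strand), Rbm39 at chr2:156179531-156179830 (minus strand) and Hnrnpu at chr1:178337766-178338065 (minus strand).
Sf3b1: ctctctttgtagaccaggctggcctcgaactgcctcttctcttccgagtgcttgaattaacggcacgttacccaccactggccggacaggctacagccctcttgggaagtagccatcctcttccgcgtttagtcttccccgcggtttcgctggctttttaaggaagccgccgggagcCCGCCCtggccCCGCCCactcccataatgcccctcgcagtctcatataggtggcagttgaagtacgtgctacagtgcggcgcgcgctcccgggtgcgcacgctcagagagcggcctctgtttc
Sf3a1: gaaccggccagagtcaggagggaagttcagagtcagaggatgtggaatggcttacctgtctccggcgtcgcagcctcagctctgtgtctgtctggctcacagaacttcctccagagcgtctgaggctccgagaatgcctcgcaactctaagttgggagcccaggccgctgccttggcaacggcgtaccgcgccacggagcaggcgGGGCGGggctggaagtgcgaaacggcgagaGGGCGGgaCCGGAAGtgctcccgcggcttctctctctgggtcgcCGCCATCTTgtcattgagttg
Rbm11: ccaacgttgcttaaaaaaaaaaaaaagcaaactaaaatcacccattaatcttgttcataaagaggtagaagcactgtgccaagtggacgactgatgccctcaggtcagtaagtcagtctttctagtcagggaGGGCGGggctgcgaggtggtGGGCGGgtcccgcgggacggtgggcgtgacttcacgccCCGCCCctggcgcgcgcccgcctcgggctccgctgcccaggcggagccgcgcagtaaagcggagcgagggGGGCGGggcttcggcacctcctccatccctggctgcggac
Snrpb2: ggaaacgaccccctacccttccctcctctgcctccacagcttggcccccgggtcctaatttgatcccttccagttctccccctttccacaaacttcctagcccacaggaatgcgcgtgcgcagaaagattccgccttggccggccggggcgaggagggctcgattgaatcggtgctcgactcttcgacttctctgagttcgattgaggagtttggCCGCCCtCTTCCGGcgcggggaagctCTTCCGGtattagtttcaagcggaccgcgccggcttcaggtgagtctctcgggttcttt
Rbm39: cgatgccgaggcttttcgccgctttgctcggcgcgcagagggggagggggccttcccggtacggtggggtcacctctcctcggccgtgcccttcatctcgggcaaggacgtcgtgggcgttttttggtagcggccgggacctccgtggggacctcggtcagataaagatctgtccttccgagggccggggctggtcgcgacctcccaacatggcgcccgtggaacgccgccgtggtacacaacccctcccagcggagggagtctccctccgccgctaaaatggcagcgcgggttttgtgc
Hnrnpu: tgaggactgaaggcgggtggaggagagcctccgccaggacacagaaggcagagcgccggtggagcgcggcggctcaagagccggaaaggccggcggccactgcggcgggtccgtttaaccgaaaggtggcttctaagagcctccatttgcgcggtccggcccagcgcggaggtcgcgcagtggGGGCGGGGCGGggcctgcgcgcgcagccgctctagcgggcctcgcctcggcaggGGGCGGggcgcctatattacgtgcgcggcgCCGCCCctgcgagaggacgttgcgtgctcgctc

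The stretch printed for Rbm39 held none of the 6 motifs, the Rbm11 and Hnrnpu promoters held only the GC box, and the Sf3a1 promoter held the GC box, the ETS core and the YY1 letters. For Rbm39 the 2 sources place the start differently. Its window was centred at 407 bp from the deposited start and at -251 bp (upstream) from the RefSeq start. The stretch printed for it therefore lies inside the gene by the deposited start. The windows of these genes overlapped or followed the printed stretch.

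The starts of splicing genes carried high levels in all groups of these libraries labelled H3K9me3. Over the 6 libraries the 85 windows had a median of 890 scaled reads, against 543 for all protein-coding gene starts, and 68 of 85 (80.0%) were above the latter. Within single libraries 77.6% to 85.9% were above the median of that library's gene starts. The highest was Rbm39, a U2AF-related splicing factor, with 2625 and 2587 scaled reads in the empty-vector libraries, 1581 and 2231 with the hairpin and 2734 and 2077 in betaTC3. Hnrnpu, a nuclear scaffold protein that binds RNA, followed at a mean of 2133, and Srsf2, an SR protein that activates exons, at 1749. These ranks were not tested, and the ranges of the libraries overlapped between Rbm39 and Hnrnpu.

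**Figure D1:**
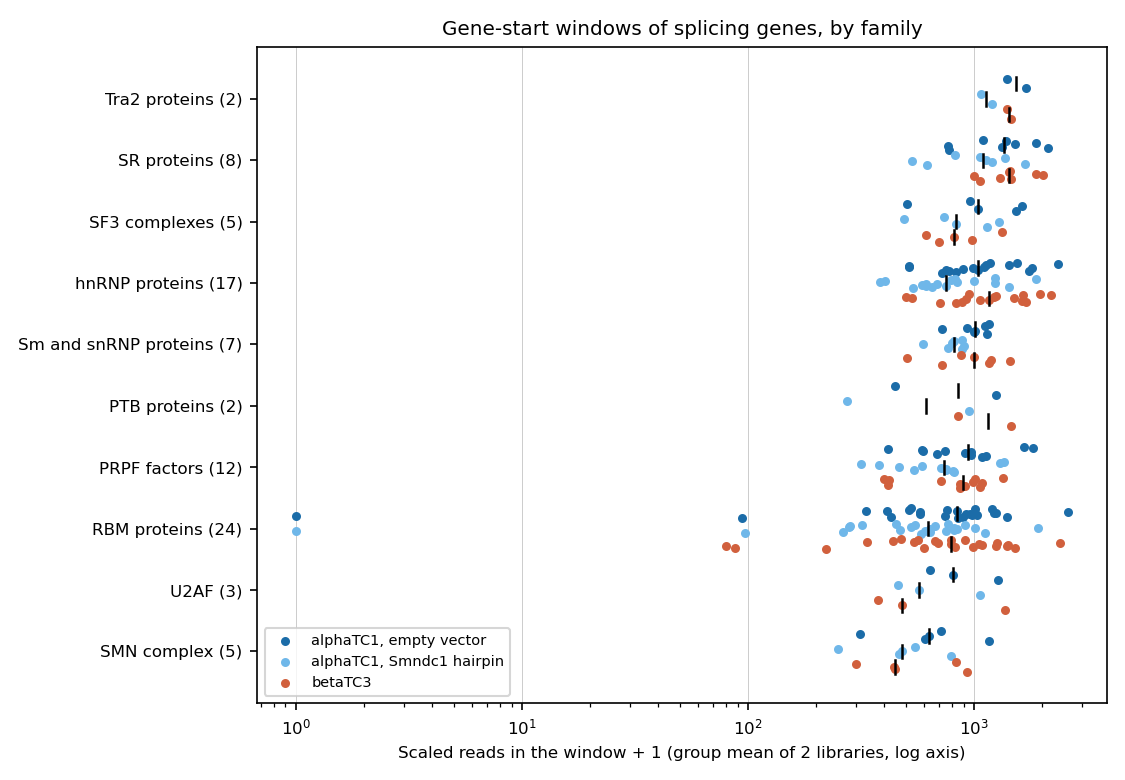
Levels at the starts of splicing genes by family. Each point is a gene, as the mean scaled reads plus 1 of the 2 libraries of a group on a log axis, black bars are family medians within the group, and numbers in brackets are genes per family. Most genes lie between about the same bounds in each group, and Rbm20 is the gene at 0 in both alphaTC1 groups.

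Families differed in level. The median of the mean over 6 libraries was 1364 for the 2 Tra2 genes, 1278 for the 8 SR genes, 1003 for 5 SF3 genes, 982 for 17 hnRNP genes and 972 for 7 Sm and snRNP genes. It was 866 for the 2 PTB genes, 857 for 12 PRPF genes, 714 for 24 RBM genes, 616 for 3 U2AF genes and 517 for the 5 SMN complex genes. The RBM family had the widest range, from Rbm20 at 26.3 to Rbm39 at 2306. Rbm20, which controls splicing of titin in heart muscle, had no reads in any alphaTC1 library and 69.5 and 88.5 scaled reads in betaTC3. Within the other families the extremes were Prpf8, at the heart of the catalytic core, with 1454 and Prpf40b with 377, and Gemin5, which recognises small nuclear RNAs, with 959 and Gemin8 with 286. The 11 distant windows ranged from 4.51 to 1268.

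The first comparison asked whether the Smndc1 hairpin changed the chromatin at these genes in alphaTC1. None of the 96 windows was called by limma with Benjamini-Hochberg adjustment, with a smallest adjusted p of 0.117. The share called over all windows was 0%, and no member or other window passed. At an unadjusted p under 0.05 there were 34 members and 6169 windows in all, and edgeR with TMM scaling (10 members at an unadjusted p under 0.05) and DESeq2 also called no member. DESeq2 called 10 windows in the whole table (0.0567%).

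Values were nevertheless lower with the hairpin at nearly every splicing gene, as they were across the table. The fitted difference was below 0 in 91 of 96 windows, with a median of -0.39 (log2), beside -0.37 over all windows. Both hairpin libraries were below both empty-vector libraries in 85 of 96 windows (88.5%), where the share over all windows was 64.6% and over protein-coding gene starts 80%. After each library was centred on its median, the member median was -0.01 and 52 of 96 windows were below 0, so the common direction depends on the scaling. The hairpin libraries also differed from each other: library 1 was above library 2 at 1 of 85 gene starts, with a median difference of -0.37 (log2). With hairpin library 2 left out, 52 members and 6281 windows in all (35.6%) were called, 52 of the former and 6038 of the latter lower; the lone hairpin library was then given the spread of the rest.

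**Figure D2:**
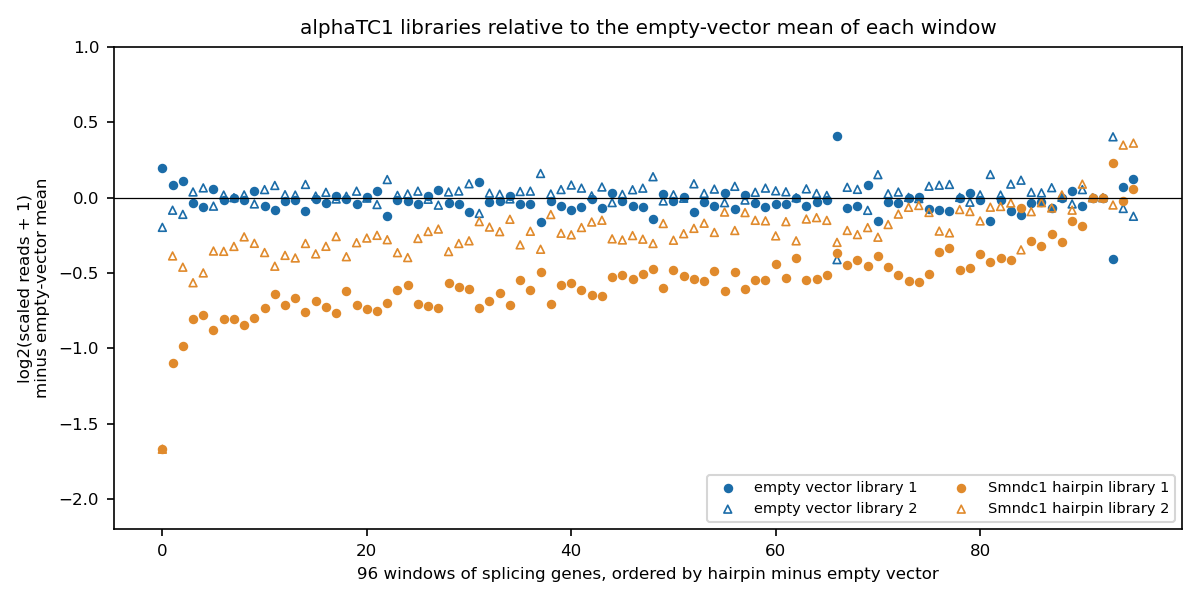
The 4 alphaTC1 libraries at the 96 windows. The horizontal axis orders windows by the fitted difference and the vertical axis is log2(scaled reads + 1) minus the empty-vector mean of the same window. Hairpin library 1 lies below hairpin library 2 at nearly all windows, and both lie below the empty-vector libraries at 85.

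The smallest p belonged to Rbm4b, an RNA-binding regulator of alternative exons. Its start held 498 and 525 scaled reads with the empty vector against 293 and 345 for the hairpin, a log2 difference of -0.68 (SE 0.13, limma adjusted p = 0.117). Both hairpin values were lower and the groups did not overlap. The start of Rbm43 stood at 388 and 434 against 263 and 299, a log2 difference of -0.55. At Rbm11, an RBM protein found in few tissues, the values were 833 and 856 against 515 and 647. A window upstream of Rbm12b1 had 4 reads in all with the empty vector and 0 with the hairpin, too few for a fold. None passed the test.

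Values above 0 were rare and small. A window centred 7547 bp upstream of Srsf9 held 88.7 and 74.6 scaled reads with the empty vector against 84.8 and 105 for the hairpin, and a window upstream of Rbm6 held 34.4 and 31.1 against 32.2 and 41.9. The start of Rbm12b1 held 67.5 and 119 against 105 and 86.6. In all 3 the groups overlapped. By family, and on the deposited scaling, all 17 hnRNP, 12 PRPF, 8 SR, 7 Sm and snRNP, 5 SMN complex, 3 U2AF, 2 PTB and 2 Tra2 gene starts had both hairpin libraries below both empty-vector libraries, as had 4 of 5 SF3 and 19 of 24 RBM starts, beside the 80% of protein-coding gene starts. Differences between families were not tested. The smallest difference among SF3 genes was at Sf3b3, with 485 and 522 against 442 and 535.

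The second comparison set betaTC3 against alphaTC1 with the empty vector. Here limma called 26 of 96 windows (27.1%), 10 higher and 16 lower in betaTC3. Over all windows 22.1% were called higher and 33.2% lower, or 55.2% together. Of the 85 gene-start windows 20 were called, 7 higher and 13 lower, which is 23.5%, and 45% of all protein-coding gene starts were called. The median difference of the members was -0.04, beside -0.13 over all windows, and it was the same with windows at 0 set to their bound.

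The split of these calls depended on scaling. With each library centred on its median, 33 members were called higher and 17 lower, beside 34.3% and 31.9% of all windows, and the member median was 0.14. By edgeR with TMM scaling 35 were higher and 18 lower (35.3% and 32.6% of all windows), and by DESeq2 36 and 12 (34.4% and 27.5%); all 26 calls were called with the same sign after centring and by edgeR. Sf3b3, Smn1, Snrpb, Ptbp1 and Ptbp2, given below as not called by limma, were called higher by edgeR, and Snrpg lower. The count was also set by single libraries, at 15 without empty-vector library 1, 8 without library 2, 14 without betaTC3 library 1 and 15 without library 2, or 8.33% to 15.6% of members. Over all windows 41.3%, 39.6%, 39.7% and 42.3% were called in the same fits. It was 37 without either hairpin library (60.2% and 60.3% of all windows). Of the 26 called windows, 8 were called with each of the 6 libraries left out and 18 were not; among the 8 were the starts of Rbm11, Rbm20, Sf3a1, Snrpd2 and Prpf31 and the distant windows of Rbm6 and Snrpf.

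**Figure D3:**
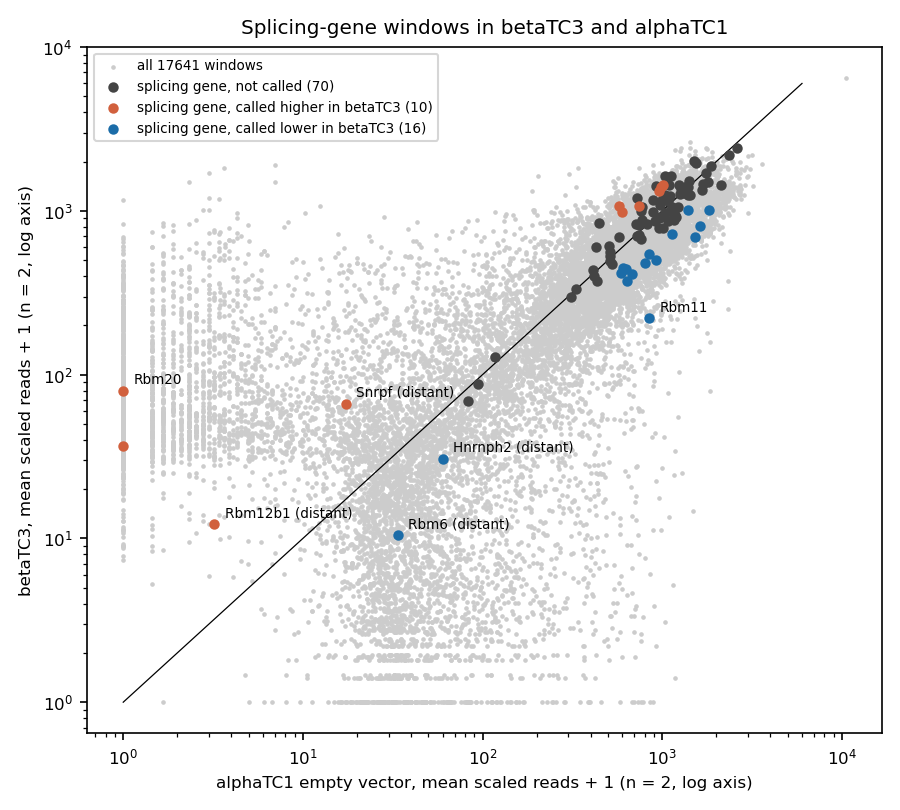
Mean scaled reads plus 1 in alphaTC1 with the empty vector (horizontal) and betaTC3 (vertical), n = 2 each, both on log axes, with the line of equal values. Grey points are all 17641 windows, coloured points the 26 called splicing-gene windows and dark points the other 70, most of which lie close to the line at high levels.

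Of the 7 windows of SF3 genes, whose proteins sit with the U2 snRNP at the branch point, 2 were called lower and 1 higher. Sf3a1, a subunit of the SF3a complex, has its window at chr11:4160329-4160729 over the gene start, with 1486 and 1572 scaled reads with the empty vector, 1048 and 1230 with the hairpin and 708 and 680 in betaTC3. Both betaTC3 values were below all 4 alphaTC1 values, and the log2 difference from the empty vector was -1.14 (SE 0.15, limma adjusted p = 7.6e-04). Sf3b1, the largest SF3b subunit, which clamps the branch point, has its window at chr1:55026890-55027290 inside the gene, with 1561 and 1705 scaled reads with the empty vector and 864 and 761 in betaTC3. The log2 difference was -1.01 (SE 0.18, limma adjusted p = 0.00363), it was not called without empty-vector library 2 or without betaTC3 library 2, and the groups did not overlap.

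Among other genes of that particle, Sf3b6, the SF3b subunit at the branch adenosine, was higher in betaTC3, with 941 and 967 scaled reads against 1357 and 1285 and a log2 difference of 0.47 (limma adjusted p = 0.0283). Snrpb2, the U2 protein that binds the small nuclear RNA, was also higher, with 988 and 1033 against 1419 and 1443 and a log2 difference of 0.50 (limma adjusted p = 0.0316). Its partner Snrpa1 was lower, with 1140 and 1134 against 771 and 674 (log2 difference -0.66). In all 3 the groups did not overlap. Sf3b6 and Snrpb2 were each not called without either empty-vector library or either betaTC3 library (limma adjusted p up to 0.181 and 0.2), and Snrpa1 was not called without either empty-vector library or betaTC3 library 2. Sf3a3 and Sf3b3, further SF3 subunits, had log2 differences of -0.08 and 0.27 at their starts and were not called, and that of Sf3a3 was 0.10 after centring.

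Both U2AF genes on chromosome 7 were called lower. U2af2, which binds the polypyrimidine tract, had 585 and 692 scaled reads with the empty vector and 383 and 365 in betaTC3, and its log2 difference was -0.77 (SE 0.18). U2af1l4, a relative of the small U2AF subunit, had 798 and 809 against 520 and 438, a log2 difference of -0.75. U2af2 was not called without empty-vector library 2 or either betaTC3 library, nor U2af1l4 without empty-vector library 2. The main small subunit gene U2af1, which reads the last bases of the intron, held 1256 and 1289 against 1692 and 1030, so that its betaTC3 libraries lay on either side of the empty vector.

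Among Sm proteins, which form the ring of each snRNP, Snrpd2 was called lower, with 916 and 938 scaled reads with the empty vector and 499.9 and 502 in betaTC3 (log2 difference -0.89, SE 0.15). The replicates lay close together and far apart from the other group. Snrpg, Snrpe and Snrpb, of the same ring, had log2 differences of -0.41, -0.15 and 0.22 and were not called. The start of Snrpf had no window of its own in the table; a weak window 4650 bp upstream held 21.2 and 11.5 scaled reads with the empty vector and 64.7 and 66.6 in betaTC3, and was called higher (log2 difference 2.0, SE 0.33).

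In the SMN complex, Gemin7 and Gemin6, which bind each other as a pair, were both called lower, with log2 differences of -0.51 and -0.44. Gemin7 held 645 and 616 scaled reads against 434 and 451, and Gemin6 held 580 and 633 against 473 and 422; neither pair of groups overlapped. Both calls were lost without either empty-vector or either betaTC3 library (limma adjusted p up to 0.125 and 0.22). Smn1 itself, the centre of that complex, had 679 and 749 against 862 and 794 and was not called (log2 difference 0.21).

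Of the PRPF factors, Prpf6 and Prpf31, both of the tri-snRNP that brings the catalytic RNAs, were called lower. Prpf6 had 1794 and 1856 scaled reads with the empty vector and 1015 and 1001.1 in betaTC3, a log2 difference of -0.86 (SE 0.15), and Prpf31 had 655 and 708 against 429 and 397, a log2 difference of -0.72 (SE 0.13). Prpf39, a partner of the U1 snRNP, was called higher at its start, with 569 and 616 against 1077 and 888 (log2 difference 0.72, SE 0.16), while Prpf8 and Prpf19 were not called. Without empty-vector library 2 neither Prpf6 nor Prpf39 was called, and Prpf39 was also not called without empty-vector library 1 or betaTC3 library 1.

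None of the 9 SR windows and neither Tra2 gene was called by limma, with SR differences from -0.59 to 0.43. At Srsf2 the betaTC3 libraries held 1768 and 1126 scaled reads against 2167 and 2069, so the spread within betaTC3 was nearly as large as the gap. By the median-centred fit 5 SR windows were called higher and none lower, beside 34.3% and 31.9% of all windows. Whether SR genes differ from other genes in this was not tested. Tra2a and Tra2b, which activate exons as partners of SR proteins, had differences of -0.21 and -0.0025.

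Among hnRNP gene starts 1 of 17 was called. Hnrnpc, which binds runs of U in transcripts, had 731 and 760 scaled reads with the empty vector and 1080 and 1048 in betaTC3, a log2 difference of 0.51 (SE 0.16, limma adjusted p = 0.0344). The call was lost without either empty-vector library or either betaTC3 library (limma adjusted p up to 0.186). Distant windows of Hnrnph2 and Hnrnpm were called lower, with log2 differences of -0.97 and -0.46; the former was not called without empty-vector library 2 or betaTC3 library 2, and the latter without any 1 of the empty-vector or betaTC3 libraries. Hnrnpa1 and Hnrnpa2b1, repressors of exon use, differed by 0.00 and -0.04. The PTB genes were not called: Ptbp1 had 1186 and 1295 against 1547 and 1345, and Ptbp2 had 481 and 412 against 1205 and 482, where 1 betaTC3 library held 2.5 times the other.

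The RBM genes included the lowest and the highest difference of the 96 windows. Rbm11 has its window at chr16:75592921-75593321, inside the gene, and held 833 and 856 scaled reads with the empty vector, 515 and 647 with the hairpin and 232 and 209 in betaTC3. The log2 difference from the empty vector was -1.93 (SE 0.15, limma adjusted p = 7.7e-05), and betaTC3 lay below all 4 alphaTC1 libraries. Rbm20 has its window at chr19:53676929-53677329 over the gene start. Against a floor of 3 reads per library, its 180 reads in betaTC3 were at least 23.8-fold higher than the 0 reads with the empty vector. The windows are deposited as a set of peaks, and only betaTC3 libraries had a peak at this one. Its direction was thus set by how it entered the set.

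Rbm26, Rbm25 and Rbm42 were called as well, with log2 differences of 0.86, 0.50 and -0.63. Leaving out 1 library ended the Rbm26 call in 5 of 6 cases (all but betaTC3 library 2), the Rbm25 call in 4 (each empty-vector and betaTC3 library) and the Rbm42 call in 3 (empty-vector library 2 and each betaTC3 library). At Rbm26 the betaTC3 libraries stood far apart, at 1358 and 795, but both were above the empty vector at 572 and 573. A weak window upstream of Rbm6 held 34.4 and 31.1 scaled reads against 9.58 and 9.52, and was called lower (log2 difference -1.68), while the start of Rbm6 was not called. A window upstream of Rbm12b1 had 4 reads with the empty vector and 27 in betaTC3, a ratio of 5.52 (exact 95% counting interval 1.92 to 21.7, which covers counting error only), and was not called without empty-vector library 2. The start of Rbm12b1 differed by -0.05.

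**Figure D4:**
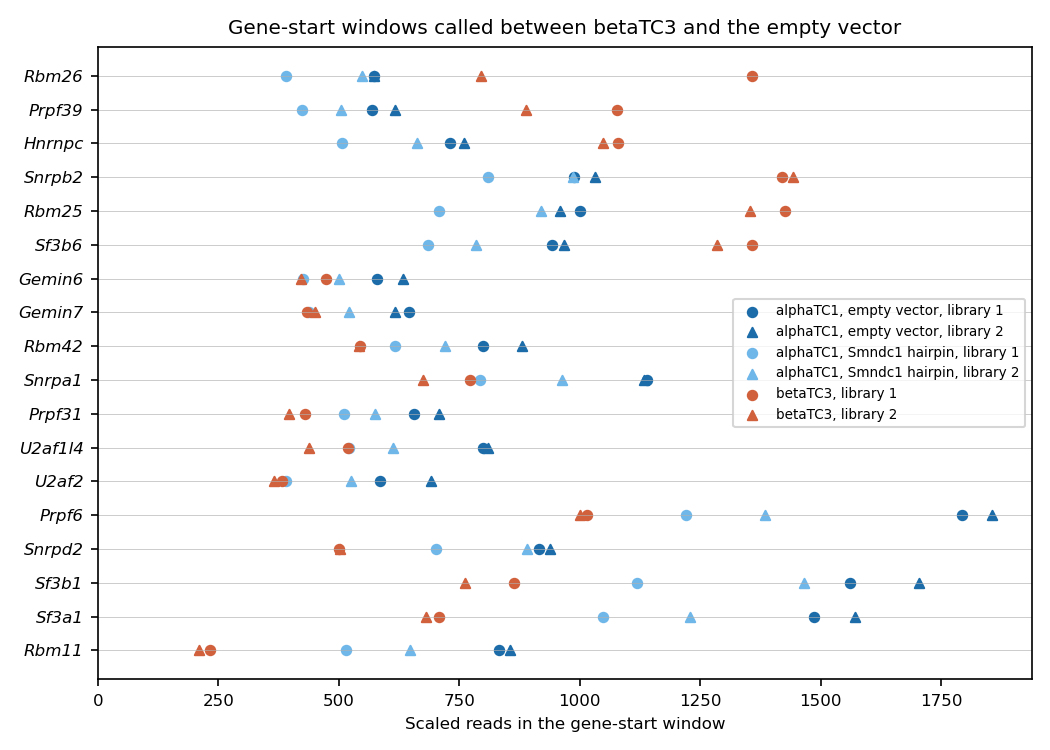
Scaled reads in each library at 18 of the 20 called gene starts, without Rbm20, ordered by the log2 difference between betaTC3 and the empty vector (lowest at the bottom). Circles are library 1 and triangles library 2; for each gene both betaTC3 points lie on 1 side of both empty-vector points.

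Many of the called genes lay on chromosomes whose windows differed as a whole. Over windows with a mean of at least 100 scaled reads, the median log2 difference between betaTC3 and the empty vector was -0.15 in all, but it was -0.73 on chromosome 11 (955 windows), -0.59 on chromosome 7 (816 windows), 0.42 on chromosome 12 (416 windows) and 0.64 on chromosome 14 (356 windows). On chromosome 7, 7 of the 9 splicing gene starts were called lower: Snrpd2, U2af2, U2af1l4, Prpf31, Snrpa1, Rbm42 and Gemin7. The 5 called gene starts on chromosomes 12 and 14, which are Sf3b6, Rbm25, Prpf39, Hnrnpc and Rbm26, were all higher. In 19 of the 20 called gene starts the median of the chromosome had the sign of the gene, the exception being Snrpb2 (0.50 beside -0.29). Chromosomes with medians far from 0 did not all hold many calls. Among splicing gene starts 1 of 6 was called on chromosome 11, 0 of 4 on chromosome 6 (median -0.43) and 0 of 3 on chromosome 18 (0.26). Over all protein-coding gene starts 16.4% were called higher and 28.6% lower. That share was not counted by chromosome, so these counts do not set splicing genes apart from other genes there.

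**Figure D5:**
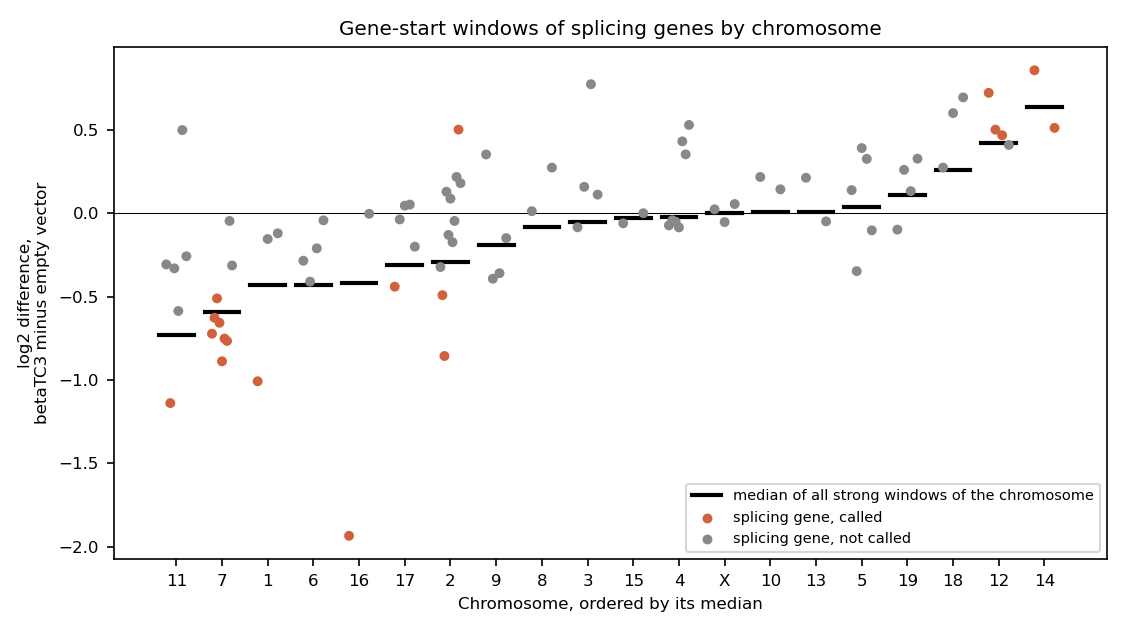
Log2 differences between betaTC3 and the empty vector at splicing gene starts, by chromosome, without Rbm20. Chromosomes are ordered by the median of all their windows with a mean of at least 100 scaled reads (black bars). Called genes are orange, with 7 of 9 on chromosome 7 and 5 of 6 on chromosomes 12 and 14, but 1 of 6 on chromosome 11, which has the lowest median. The share of all gene starts called on each chromosome was not counted.

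With each chromosome of each library centred on its own median, an alternative chosen after seeing the data, 39 members were called, 30 higher and 9 lower, beside 29.3% and 28.2% of all windows, and 14 of the 26 calls were called again with the same sign. Of the 7 lower genes on chromosome 7 only Snrpd2 remained (log2 difference -0.33, limma adjusted p = 0.0152). Sf3a1 (-0.48), Sf3b1 (-0.49), Rbm11 (-1.52), Prpf6 (-0.65), Snrpb2 (0.70) and Prpf39 (0.27) also remained called, as did Rbm20 and the distant windows of Snrpf, Rbm12b1, Rbm6 and Hnrnph2. Sf3b6, Rbm25, Rbm26 and Hnrnpc were not called. Hnrnpc changed sign to -0.08 and Gemin7 to 0.05. The part of the chromosome-wide differences in the calls was not tested beyond this refit.

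The third comparison, betaTC3 against alphaTC1 with the hairpin, shares the betaTC3 libraries with the second. It gave 40 called windows, 33 higher and 7 lower, where 36.6% of all windows were higher and 24% lower, and the member median was 0.33 beside 0.23. The split depended on scaling here too: 34 were higher and 16 lower after centring (35.9% and 33.4% of all windows), 36 and 18 by edgeR with TMM scaling (36.3% and 33.9%), 36 and 12 by DESeq2 (36% and 28.6%), and 31 and 10 with chromosomes centred (29.4% and 33.3%). The count was 10 without betaTC3 library 1, 22 without library 2, 23 without empty-vector library 1, 22 without empty-vector library 2, and 24 when only the 2 groups were fitted. Over all windows the shares called in the first 4 of these fits were 37%, 47.2%, 49.4% and 49.4%. With only the 2 groups fitted, 49.6% of all windows were called. The counts listed here leave out the fits without a hairpin library. In these the member median was 0.16 without hairpin library 1 and 0.49 without hairpin library 2. Over all windows it was 0.1 and 0.37 in the same fits. The windows called lower on the deposited scaling were Rbm11 (log2 difference -1.39), the distant windows of Rbm6 (-1.84) and Hnrnph2 (-0.76), Sf3a1 (-0.71), Sf3b1 (-0.66), Snrpd2 (-0.66) and Prpf31 (-0.39). Of these, Rbm11 and the Rbm6 window were called with each of the 6 libraries left out, and the other 5 were lost without betaTC3 library 1 and without betaTC3 library 2.

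Among the higher ones, Rbm20 was at least 20.3-fold above its floor, and Prpf39 had 423 and 505 scaled reads with the hairpin and 1077 and 888 in betaTC3 (log2 difference 1.08). Rbm4b stood at 293 and 345 against 549 and 573 (log2 difference 0.82), and Hnrnpr, an hnRNP that binds many transcripts, at 677 and 896 against 1912 and 1371 (log2 difference 1.05). Rbm27, Rbm22 and Rbm43 were called with log2 differences of 1.15, 0.74 and 0.64, and Sf3b6 and Hnrnpc with 0.85 and 0.88. In each of these windows both betaTC3 libraries were above both hairpin libraries. Without betaTC3 library 1, Hnrnpr, Rbm27, Rbm43 and Hnrnpc were not called.

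The betaTC3 libraries differed from each other at particular genes. In 12 of 96 windows library 1 was more than 1.5 times library 2, and in none the reverse. At Hnrnpab, which binds RNA in nucleus and cytoplasm, library 1 held 2329 scaled reads and library 2 held 927, with 1072 and 1007 in the empty-vector libraries. Rbm33 stood at 1481 and 623 and Rbm15b, a partner of RNA methylation, at 851 and 348. Of the gene starts 14.1% were more than 0.5 (log2) higher in library 1, close to the 15.2% of protein-coding gene starts with a mean of at least 100. No batch is labelled that would separate these libraries.

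The authors deposited 1 peak list per library. A peak overlapped 92 of the 96 windows in each alphaTC1 library and 94 in each betaTC3 library, and 90 windows had one in all 6. These shares are 95.8% and 97.9%. Of the 85 gene starts alone, 84 had a peak in each alphaTC1 library and 85 in each betaTC3 library, beside 91.1% to 94.4% of all protein-coding gene starts. The windows are deposited as a set of peaks, so high shares were largely given in advance. Peaks at Rbm20 and at the distant windows of Rbm12b1 and Snrpf were present in both betaTC3 libraries and in no alphaTC1 library. Those at the distant windows of Rbm6 and Hnrnph2 were present in the 4 alphaTC1 libraries alone. As the windows are a set of peaks, each of these entered it through the cell line where it was higher. Their calls and folds between betaTC3 and either alphaTC1 group, and these peaks, are therefore no separate evidence of a difference. The peaks over splicing windows were broad, with a median width of 1958 to 2229 bp per library, beside 1511 to 1783 bp at protein-coding gene starts.

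Some splicing genes have no row under their own name. RefSeq names 118 protein-coding genes that the rule would take, and 28 of them have none. Of the 23 with a RefSeq start, 17 have a peak within 1 kb in all 6 libraries, and in 16 the window there is assigned to a neighbouring gene, as that of Srsf1 to Gm11508 and that of Hnrnpk to Rmi1. For Rbm24, Rbm46, Rbm47, Rbm31y, Srsf12 and Hnrnpa1l2-ps2 no library had a peak there. The 90 genes therefore leave out splicing genes whose signal stands under another name.

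Other splicing genes, from a list of 150 that the names above do not take, had 144 windows at 125 genes. None was called between hairpin and empty vector by limma, with 45 at an unadjusted p under 0.05, and edgeR called none either. Between betaTC3 and the empty vector 11 (7.64%) were higher and 34 (23.6%) lower on the deposited scaling, beside 22.1% and 33.2% of all windows. This order turned to 51 higher and 33 lower after centring (34.3% and 31.9% of all windows). By edgeR it was 53 and 34 (35.3% and 32.6% of all windows). On the deposited scaling the 45 windows of further spliceosome proteins and helicases had 1 higher and 17 lower, and the 34 of other snRNP proteins 1 and 7. The 53 of other RNA-binding regulators had 8 and 6, the 7 of splicing kinases 0 and 2 and the 5 of snRNP assembly factors 1 and 2. More windows of the whole table were likewise called lower than higher on that scaling, and differences between these lists were not tested.

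Regulators of alternative exons held several of the largest differences among these genes. The windows are deposited as a set of peaks, so a window near 0 in 1 line may have entered it only through the other line. For such windows the direction and size of a difference are no separate evidence of it. Peaks at these windows were not counted by library. The start of Mbnl3, of the muscleblind family, had 0 and 0.888 scaled reads with the empty vector and 179 and 133 in betaTC3, and the start of Esrp2, an epithelial splicing regulator, had 0 in all alphaTC1 libraries and 40.7 and 51.4 in betaTC3. Windows far from the starts of Msi2, Rbfox2 and Mbnl1 were also called higher, with Mbnl1 at 70.2 and 70.1 against 228 and 214. Other distant windows of Mbnl1 had log2 differences of 0.80 and -0.73. The starts of Msi2 and Rbfox2 had log2 differences of -0.57 and 0.68. None of these further windows was called by limma on the deposited scaling. The start of Rbfox1, which binds introns beside regulated exons, was lower, with 328 and 387 against 55.1 and 62.8 (log2 difference -2.58, SE 0.16). The 2 windows assigned to Crnkl1, a spliceosome protein, lie 110792 and 127211 bp upstream of it and differed by -4.40 and -3.17; distant windows of Dhx8, a spliceosome helicase, and Lsm4 were lower too (-2.86 and -2.11).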

How the data were processed

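ChIP-seq libraries were read as 50 bp single reads, per the labels' protocols. Tools named in the submitters' processing notes are MACS2 2.2.7.1, Bowtie2 2.4.1 and Picard 2.19.2, with build mm10 (GRCm38) and no roles. The authors deposited 1 signal (coverage) value per library for each window, found here to be a whole number times 1 factor per library (100% of values within 0.001), and taken as scaled reads; the origin of these factors and any subtraction of input are not given in the sources used here. Floors and counting intervals would cover only what was left after such a subtraction. The authors' peak lists, called per library, give a ratio (fold) and a −log10 q-value for each peak, as deposited; peak widths and an overlap of at least 1 bp were used here, and no fold is compared between lists.

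Windows were tested with limma on log2(scaled reads + 1), with a mean for each of 3 groups over 6 libraries and an intensity trend, and with Benjamini-Hochberg adjustment over 17641 windows (called at an adjusted p below 0.05). Recovered reads were also tested with edgeR and DESeq2. On simulated data with changes placed in betaTC3, each tool recovered their direction, but limma called almost none of the 2-fold changes, most of which edgeR and DESeq2 called. Only 200 of 17641 windows were changed there, and an adjusted p depends on how many windows change. In these data limma called 55.2% of windows between betaTC3 and the empty vector, including Sf3b6 at a log2 difference of 0.47. The simulated rate thus does not carry over to these data. A window not called by limma is still not shown to be equal between groups. Fold changes are on the log2(value + 1) scale, which understates those of low windows. Floors are 3 reads per library (2.40 to 4.19 scaled reads) and cover counting error only, since reads carry no molecular identifiers. The median depth was 188 to 367 reads per window. Replicate numbers were not used as pairs.

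The members and lists were chosen with earlier results of these data known. Windows named were the called ones if 24 or fewer in a comparison, otherwise the 12 of smallest p in each direction, or where none was called the 5 of smallest p in each direction. To these came the highest and lowest window of each family, windows under 3 reads in 1 group and above 10 in another, and up to 5 called windows in each direction among other splicing genes. Further names were chosen after their values were seen, as were the motifs. Alternatives were a pseudocount of 0.1, a mean of at least 10, median centring, no trend, only the groups compared, edgeR, DESeq2, a replicate block, windows within 1 kb and each library left out. A withheld gene is counted but not reported here by name. Input samples were not analysed here on their own. Software was R 4.3.3, limma 3.58.1, edgeR 4.0.16, DESeq2 1.42.0, Python 3.11.15, pandas 2.3.3, numpy 2.4.6 and matplotlib 3.10.9.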

Additional observations from a re-analysis of the deposited data

How the results depend on the processing

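Between hairpin and empty vector, 0 splicing windows became 1 with a pseudocount of 0.1 and 0 to 52 with a library left out. The 0 windows of the whole table became 335 with that pseudocount, 163 without a trend, 31 with only the groups compared, 10 by DESeq2, 6 within 1 kb of a start, 83 by edgeR with the deposited scaling (chosen after seeing the data) and 0 to 6281 with a library left out. The median of -0.39 was -0.01 after centring, -0.02 by edgeR, -0.03 by DESeq2 and 0.05 with chromosomes centred. Between betaTC3 and the empty vector, 26 calls became 50 after centring, 53 by edgeR, 48 by DESeq2 and 8 to 37 with a library left out; all windows fell to 5322 called within 1 kb of a start. The median of -0.04 was 0.14, 0.13, 0.19 and, with chromosomes centred, 0.12. Between betaTC3 and hairpin, 40 calls became 24 with only the groups compared and 10 to 58 with a library left out, and 10691 windows became 6377 within 1 kb and 6523 to 11055 with a library left out. The median of 0.33 was 0.13 after centring and 0.01 with chromosomes centred. The 45 other splicing windows called between betaTC3 and the empty vector (11 higher, 34 lower) became 84 after centring (51 and 33). Over all windows the share called was 55.2%, and 66.2% after centring. Fewer windows were tested within 1 kb, and the cause of the other changes was not tested.

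Over all 96 windows, centring each library turned the sign of 41 differences between hairpin and empty vector, 21 between betaTC3 and the empty vector and 10 between betaTC3 and hairpin, none of them a call; edgeR turned 39, 20 and 10, and DESeq2 37, 24 and 9. With chromosomes centred 60, 26 and 32 turned, including 2 of the 26 and 5 of the 40 calls. Among the windows taken by the naming rule there were 6 sign changes. The distant Rbm6 window differed by -0.02 between hairpin and empty vector without hairpin library 2 (0.35 without hairpin library 1), and the Rbm12b1 start by -0.31 without empty-vector library 1 (0.49 without library 2) and -0.05 without hairpin library 1. With chromosomes centred, Hnrnpc differed by -0.08 from the empty vector and -0.2 from the hairpin, and Sf3b6 by -0.08 from the hairpin. For the named calls, 329 alternative values kept sign and call against the empty vector and 60 lost the call; against the hairpin 303 kept both and 31 lost the call. Of the named windows between hairpin and empty vector, 132 values stayed uncalled and 5 were called. Of the 22 named calls against the empty vector, 7 held under every alternative run. Same-numbered libraries deviated from their group means with correlations over windows of -0.0079, 0.085 and -0.176. A correlation leaves out any shift of a whole library, so with 2 libraries per group these values cannot tell whether the numbers mark pairs. With a replicate block, 0, 19 and 34 splicing windows were called in the 3 comparisons, and with the betaTC3 numbers crossed 0, 31 and 45. With 2 libraries per group, and a median of 188 reads per window in the shallowest library, small differences could not be told from the spread.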
